A study of Mus musculus with 8 samples.

Results

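The Notch signalling genes of follicle formation were examined in primordial follicles of mouse ovaries. The 10 genes were taken by their symbols: the receptors Notch1, Notch2 and Notch3, the ligands Jag1, Jag2 and Dll4, and the target genes Hes1, Hey1, Hey2 and Heyl. They are 10 of the 26586 gene symbols counted, and 9 of them passed the filter on low counts, Dll4 being the exception. Another 57 genes of the pathway were listed by role beside them.

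The study asked whether mitochondria added to an oocyte at fertilisation leave a trace in later generations. The 4 mito-supplemented libraries came from offspring, 3 generations on, of founders that were made by injecting a sperm together with mitochondria isolated from egg precursor cells of mice of the same strain. The 4 control libraries came from colony control offspring that were not derived from such founders. All 8 libraries were from ovaries at postnatal day 3 in mice of C57Bl/6 x CBA background, and the RNA of each came from a pool of follicles taken after the ovary had been dissected and digested. The labels call the libraries biological replicates without saying which animal or litter each came from, so the p-values measure the spread between these 8 libraries. Codes in the labels share a prefix in control replicates 1 and 2, in control replicates 3 and 4, and in mito-supplemented replicates 1 to 3, and nothing in the sources used here says what it marks.

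Notch signalling passes between touching cells: a Jagged or Delta ligand on one cell binds a Notch receptor on its neighbour, the receptor is cleaved, and its inner part enters the nucleus, where it joins Rbpj and a Mastermind-like protein and switches on Hes and Hey genes. In the ovary of the newborn mouse the oocytes lie in cysts that break apart into primordial follicles, each oocyte wrapped by flat pregranulosa cells. Jag1 in oocytes and Notch2 in pregranulosa cells are the pair best known from this step.

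RefSeq promoters, for build GRCm38.p6, were at hand for 7 of the 10 genes, and Hes1, Hey1 and Heyl had no entry. The letters TGGGAA, the core of the sequence that Rbpj is known to bind, were searched on both strands of the 300 bases from 250 before to 50 after each gene's start. They were found in 1 of the 7, Hey2, at 2 places: 207 bases before the start on the opposite strand, and 3 bases before the start on the gene's own strand, where the letters cross the start itself. Of the 32851 promoters in the table, 25.6% held the letters and 3.79% held them 2 or more times. The promoters of Hey2, a target gene that holds the letters, and of Notch2, the receptor with the highest level, which does not, are shown from 250 bases before the start to 6 bases after it. They run 5′ to 3′ on the strand of the gene, with the searched letters, or on the opposite strand their complement, in capitals. Notch2 lies on the plus strand, at chr3:98013288-98013543, and Hey2 on the minus strand, at chr10:30842778-30843033. A match describes the letters only.
Notch2: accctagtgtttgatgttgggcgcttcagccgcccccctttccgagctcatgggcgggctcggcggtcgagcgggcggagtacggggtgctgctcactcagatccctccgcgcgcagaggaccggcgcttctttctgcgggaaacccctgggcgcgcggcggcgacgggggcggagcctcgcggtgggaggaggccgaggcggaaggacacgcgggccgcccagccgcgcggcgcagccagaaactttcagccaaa
Hey2: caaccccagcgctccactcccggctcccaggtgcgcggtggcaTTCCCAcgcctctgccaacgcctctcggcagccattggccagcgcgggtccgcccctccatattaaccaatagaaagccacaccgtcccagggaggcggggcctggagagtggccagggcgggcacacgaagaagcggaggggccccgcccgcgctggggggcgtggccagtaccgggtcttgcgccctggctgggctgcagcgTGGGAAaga

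The libraries, made with a kit that amplifies cDNA, held 17658559, 13917412, 18219362 and 10370045 counts for control replicates 1 to 4. Mito-supplemented replicates 1 to 4 held 19760763, 13370911, 16116434 and 13276462. Genes of ribosomal RNA (Rnr1, Rnr2, Rn45s and Rn18s) took 23.0%, 41.3%, 40.6% and 75.3% of the control counts and 20.2%, 45.6%, 36.4% and 44.0% of the others. Control replicate 4 was thus the shallowest, with 2559876 counts outside these genes. Levels are given in CPM, the counts scaled to library size with edgeR's TMM factors, and 3 counts, the limit that a count of 0 allows for counting error alone, come to between 0.123 and 0.592 CPM depending on the library. Across the 13873 genes tested replicates spread widely, edgeR's common biological coefficient of variation being 0.771.

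The markers of both cell types of a primordial follicle were present in all 8 libraries, the oocyte markers Ddx4, Dazl and Figla and the pregranulosa markers Foxl2, Wt1 and Amhr2. The 12 listed oocyte genes, of which Kit was the most abundant, summed to 1938, 148, 116 and 349 CPM in control replicates 1 to 4 and to 237, 130, 388 and 88.9 CPM in mito-supplemented replicates 1 to 4. Control replicate 1 stood far above the other 7 libraries. The 11 pregranulosa genes, led by Wt1, summed to 280, 267, 337 and 834 CPM in the controls and to 541, 1222, 818 and 1315 CPM in the mito-supplemented libraries. Control replicates 1 to 3 lay below every mito-supplemented library on this list and control replicate 4 lay among them. A further pattern set control replicates 2 and 3 and mito-supplemented replicate 1 apart: over the genes tested their log2 CPM correlated with one another at 0.886 to 0.920 and with the other 5 at no more than 0.787, and the red cell genes listed, led by Slc4a1, summed to 4012, 2682 and 4952 CPM in them, against 14.1 to 79.0 CPM in the rest. Mito-supplemented replicates 2 and 3 were also much alike, at 0.919. The differences below were measured in libraries that also differed in make-up, and what make-up contributes to them was not tested. In bulk RNA fewer cells of a type and less RNA per cell cannot be told apart.

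**Figure D1:**
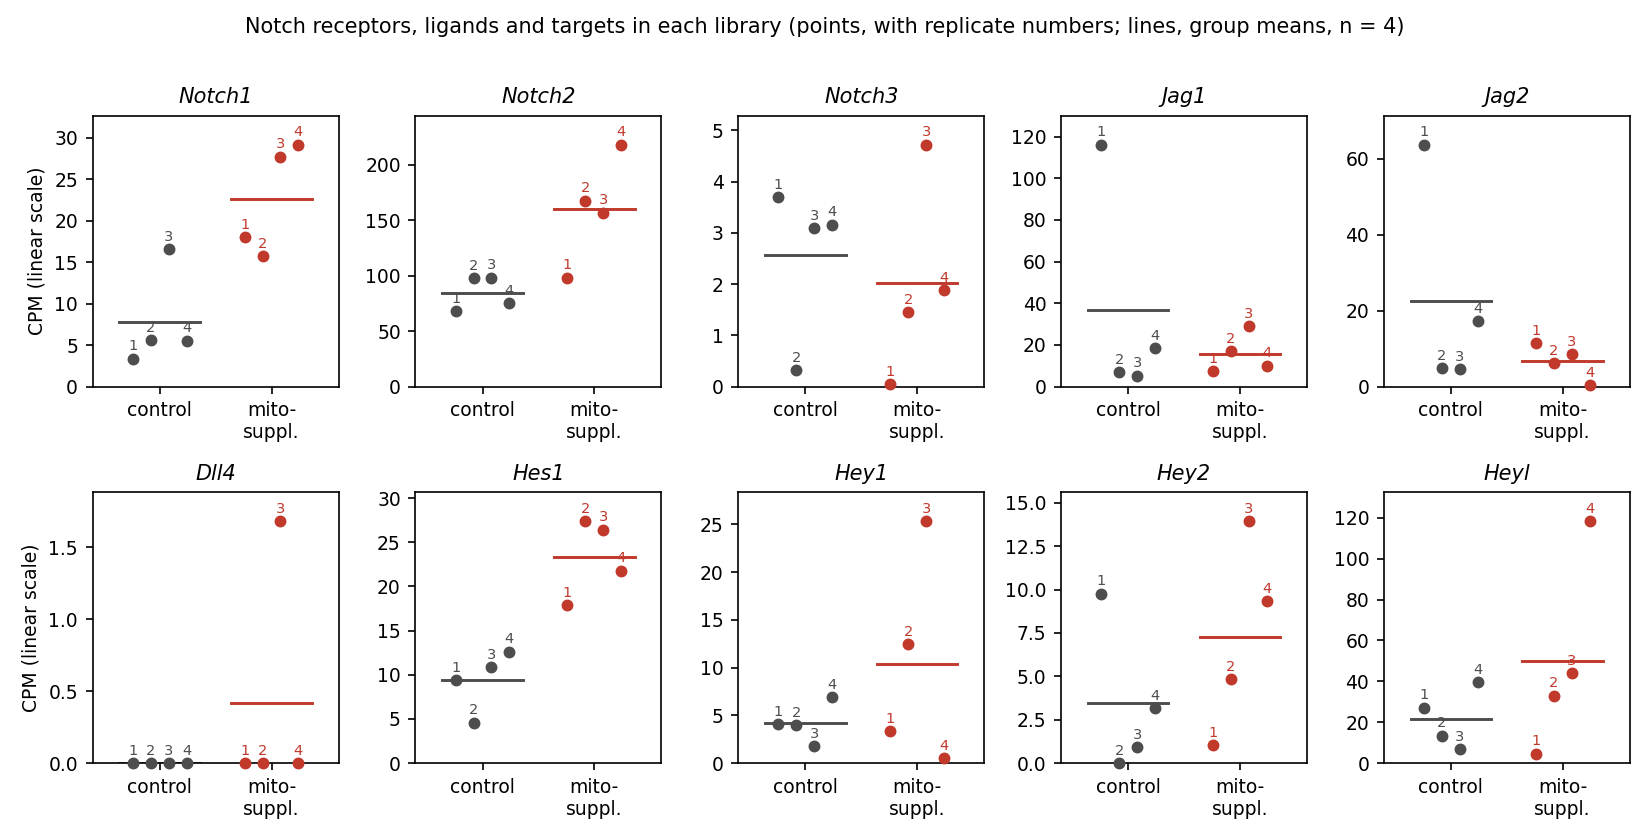
Level of each of the 10 Notch genes in each library, in CPM on linear scales that start at 0, with replicate numbers beside the points and lines at the group means (n = 4). Notch1, Notch2 and the 4 target genes have the higher means in the mito-supplemented group, with only Notch2 and Hes1 not overlapping, whereas Jag1 and Jag2 are highest in control replicate 1, at 116 and 63.7 CPM.

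Notch2 was the main receptor. Per kilobase of exon, which allows genes to be compared roughly, it had the highest mean level of the 10 genes, 11.4 ± 4.88 CPM per kb (SD, n = 8), against 1.07 ± 0.696 for Notch1 and 0.284 ± 0.204 for Notch3. The lengths joined all annotated exons of a gene, 10782 bases for Notch2 and 14232 for Notch1. The annotation release used in counting is not given, so levels per kb are approximate. Within a library, Notch2 exceeded Notch1 per kb by between 7.20 times, in mito-supplemented replicate 1, and 26.6 times, in control replicate 1. It made up between 83.6% and 95.3% of the summed receptor level per kb in the 8 libraries, and Notch1 between 3.38% and 12.2%. The gene lies at chr3:98013527-98150361 on the plus strand of GRCm38.

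Notch2 was counted at 67.9, 97.5, 98.1 and 75.4 CPM in control replicates 1 to 4 and at 98.2, 168, 157 and 218 CPM in mito-supplemented replicates 1 to 4. The groups did not overlap, but only just, since mito-supplemented replicate 1 lay level with control replicates 2 and 3, the libraries it most resembled as a whole. With upper-quartile or RLE scaling in place of TMM these libraries overlapped. The means were 84.7 ± 15.4 and 160 ± 49.2 CPM (SD, n = 4 each), and the log2 fold change came to 0.92 with a standard error of 0.33. The difference did not pass in edgeR, where the quasi-likelihood p, adjusted over all genes by Benjamini-Hochberg, was 0.626.

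Notch1, a receptor best known from vessels and blood but also made by other cells, was counted at 3.36, 5.55, 16.6 and 5.53 CPM in control replicates 1 to 4 and at 18.0, 15.7, 27.7 and 29.1 CPM in mito-supplemented replicates 1 to 4. Only control replicate 3 reached into the range of the mito-supplemented libraries, above replicate 2, and with library-size or upper-quartile scaling it did not. The means were 7.76 ± 5.97 and 22.6 ± 6.75 CPM (SD, n = 4 each), with a log2 fold change of 1.54, a standard error of 0.57 and, from edgeR with Benjamini-Hochberg adjustment, an adjusted p of 0.626. Without control replicate 3 the log2 fold change was 2.24, the highest of those with 1 library left out, and it did not pass either. The gene lies at chr2:26457903-26516663 on the minus strand.

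Notch3, a receptor known from the muscle cells around vessels, was low throughout: 3.69, 0.317, 3.09 and 3.16 CPM in control replicates 1 to 4 and 0.0485, 1.45, 4.72 and 1.88 CPM in mito-supplemented replicates 1 to 4, the lowest being a single count. The groups overlapped over almost their whole range. Its log2 fold change of −0.34 had a standard error of 1.15, and the sign changed to 0.11 when mito-supplemented replicate 1 was left out. Notch4, the remaining receptor, had 0 to 2 counts in 6 libraries and 34 and 42 counts in control replicate 3 and mito-supplemented replicate 3, and was not tested. Exons of Notch1, Notch2, Notch3 and the ligand Dll4 share 1482, 541, 488 and 214 bases with other annotated genes, so reads from those stretches may belong to either gene, the strand used in counting not being given in the sources used here.

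Both Jagged ligands were highest in the same library. Jag1, the Jagged ligand of the oocyte, was counted at 116, 6.74, 5.26 and 18.4 CPM in control replicates 1 to 4 and at 7.52, 16.9, 29.0 and 9.94 CPM in mito-supplemented replicates 1 to 4. Control replicate 1, the library with the high oocyte sum, lay far above all the others, and the remaining 3 controls fell within or just below the mito-supplemented range. Jag2, its close relative, was counted at 63.7, 4.84, 4.52 and 17.2 CPM in control replicates 1 to 4 and at 11.5, 6.16, 8.57 and 0.348 CPM in mito-supplemented replicates 1 to 4. It too was highest in control replicate 1, and lowest in mito-supplemented replicate 4, where the oocyte sum was also lowest.

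Jag1 had a log2 fold change of −1.21 with a standard error of 0.94, and Jag2 one of −1.77 with a standard error of 1.05. Leaving out control replicate 1 turned Jag1 to 0.68 and brought Jag2 to −0.38. By edgeR with Benjamini-Hochberg adjustment the adjusted p was 0.741 for Jag1 and 0.689 for Jag2 with all libraries in. Across the 11 oocyte genes tested the median log2 fold change was −1.65, all 11 lay below 0, and without control replicate 1 it was 0.22, with 4 below 0. Over all genes tested 44.9% lay above 0, and the median was −0.10, or 0.04 without control replicate 1. By the quasi-likelihood test 1 of the 11, Kit, had an unadjusted p under 0.05, against 7.71% of all genes. The part of oocyte content in the Jagged values was not tested.

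Dll4, a Delta ligand known from sprouting vessels, had 37 counts in mito-supplemented replicate 3, or 1.68 CPM, and 0 in each of the other 7 libraries. It did not pass the filter, and no fold is given for it. Among the other ligands, Dll1 had at most 10 counts and Dll3 at most 16 counts in any library, so Jag1 and Jag2 made up most of the level of the 5 Jagged and Delta ligands. The non-canonical ligands Dlk1, Dlk2 and Dner are left out of that sum. Dlk1, at 3.67 ± 4.18 CPM per kb (SD, n = 8), had a mean above that of Jag2, Dner had 356 counts in control replicate 1 and at most 46 elsewhere, and Dlk2 had at most 4. Per kb, Jag1 was between 41.3% and 96.3% of the summed level of Jag1, Jag2, Dll1, Dll3 and Dll4 in a library, and exceeded Jag2 in all libraries other than mito-supplemented replicate 1. Jag1 lies at chr2:137081456-137116644 and Jag2 at chr12:112907819-112929776, both on the minus strand.

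**Figure D2:**
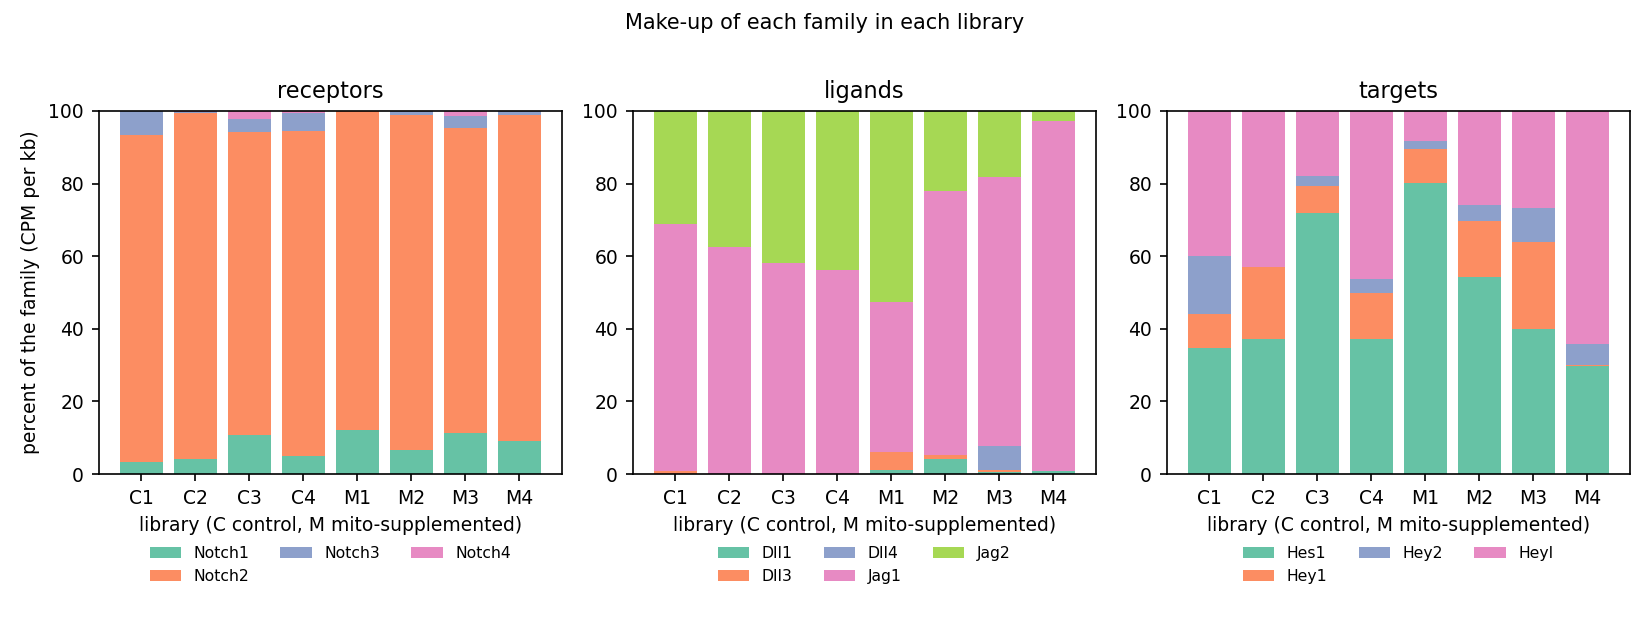
Make-up of the receptors, the ligands and the 4 Hes and Hey target genes in each library (C1 to C4 control, M1 to M4 mito-supplemented), as percent of the family's summed CPM per kb. Notch2 takes at least 83.6% of the receptors in every library, whereas the balance of Jag1 and Jag2 and of Hes1 and Heyl differs from library to library.

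All 4 target genes had means that were higher in the mito-supplemented group, and Hes1 showed it library by library. Hes1, a repressor that is switched on soon after a Notch receptor is cleaved and that other signals also induce, was counted at 9.39, 4.60, 10.9 and 12.6 CPM in control replicates 1 to 4 and at 17.9, 27.4, 26.4 and 21.8 CPM in mito-supplemented replicates 1 to 4. The lowest mito-supplemented library lay above the highest control, and did so under each of the 5 scalings examined. The means were 9.37 ± 3.45 and 23.4 ± 4.38 CPM (SD, n = 4 each), with a log2 fold change of 1.32 and a standard error of 0.44. The difference did not pass edgeR's test after Benjamini-Hochberg adjustment, the adjusted p being 0.626. Hes1 lies at chr16:30064384-30067796 on the plus strand, and none of its exons overlaps another annotated gene.

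Heyl, a relative of the Hes repressors, was counted at 27.1, 13.4, 6.81 and 39.5 CPM in control replicates 1 to 4 and at 4.71, 33.0, 44.1 and 118 CPM in mito-supplemented replicates 1 to 4. Mito-supplemented replicate 4 stood above all other libraries and replicate 1 of the same group below all, so that the groups overlapped throughout. The log2 fold change was 1.21 with a standard error of 0.83, and it came to 0.37 with mito-supplemented replicate 4 left out and to 1.69 with control replicate 4 left out.

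Hey1, another of these repressors, was counted at 4.10, 3.96, 1.77 and 6.91 CPM in control replicates 1 to 4 and at 3.35, 12.5, 25.3 and 0.556 CPM in mito-supplemented replicates 1 to 4. The highest and the lowest library both belonged to the mito-supplemented group. Its log2 fold change of 1.33 (standard error 0.97) came to 0.41 without mito-supplemented replicate 3 and to 1.76 without mito-supplemented replicate 4.

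Hey2, whose promoter is printed above, was counted at 9.76, 0, 0.915 and 3.16 CPM in control replicates 1 to 4 and at 1.02, 4.85, 13.9 and 9.32 CPM in mito-supplemented replicates 1 to 4. Control replicate 1 lay among the high mito-supplemented libraries and mito-supplemented replicate 1 among the low controls. Its log2 fold change of 1.06 (standard error 1.27) was 2.52 with control replicate 1 left out and 0.59 with mito-supplemented replicate 3 left out. By edgeR with Benjamini-Hochberg adjustment the adjusted p was 0.732 for Hey1, 0.818 for Hey2 and 0.721 for Heyl. Hey1 lies at chr3:8663359-8667256 on the minus strand, Hey2 at chr10:30832359-30842801 on the minus strand and Heyl at chr4:123233556-123249875 on the plus strand.

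By mean level per kb over the 8 libraries the order was Notch2, Hes1, Heyl, Jag1, Hey1, Jag2, Hey2, Notch1, Notch3 and Dll4. The means ran from 11.4 ± 4.88 CPM per kb for Notch2 through 8.03 ± 4.08 for Hes1, 7.01 ± 7.12 for Heyl and 4.50 ± 6.38 for Jag1 to 0.0545 ± 0.154 for Dll4 (SD, n = 8). Only Notch1 and Notch3, and Notch3 and Dll4, stood further from their neighbour in this order than the larger of the SDs. In the controls alone Jag1, at 6.28 ± 9.15 CPM per kb, came next after Notch2, and Jag2, at 3.24 ± 4.03, came before Hey1. In the mito-supplemented libraries Jag1, at 2.72 ± 1.65, came after Hey1, and Jag2, at 0.953 ± 0.677, came after Notch1 and Hey2 (SD, n = 4 each). Single libraries weighed on these places. Jag1 stood at 19.9 CPM per kb in control replicate 1, against 0.903 to 3.15 in the other controls. Hey1 stood at 7.75 CPM per kb in mito-supplemented replicate 3, against 0.170 to 3.82 in the rest of that group. The steadiest gene across libraries was Notch2, with 3.21 times between its highest and lowest library per kb, followed by Hes1 with 5.95 times. Jag1 ranged over 22.1 times and Jag2 over 183 times.

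**Figure D3:**
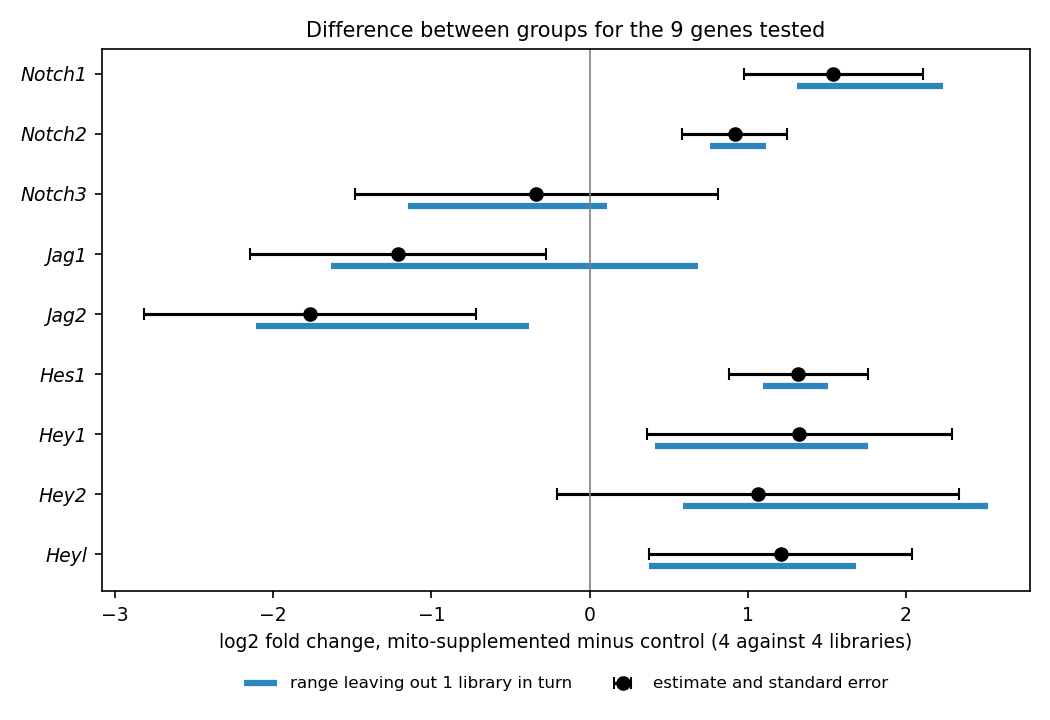
Log2 fold change (mito-supplemented minus control, 4 against 4 libraries) of the 9 genes tested, with standard errors, and below each the range obtained when 1 library was left out in turn. The ranges of Notch1, Notch2 and the 4 target genes lie above 0, whereas that of Jag1 runs from −1.63 to 0.68.

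Taking the 9 tested genes as a list, edgeR's quasi-likelihood test called 0 of them at an adjusted p under 0.05, and it called 0 of all 13873 genes, or 0%, the lowest adjusted p (Benjamini-Hochberg) of any gene being 0.418. The likelihood ratio test, which the study used, called 0 of the 9 and 58 genes in all, or 0.418%, and DESeq2 and limma-voom called 0 of the 9 as well. At an unadjusted p under 0.05 the quasi-likelihood test had 3 of the 9, Notch1, Notch2 and Hes1, against 7.71% of all genes, and the likelihood ratio test, DESeq2 and limma-voom had the same 3, with 1277, 1492 and 1426 genes in all. In the quasi-likelihood test Notch1 was not among them without control replicate 2 or without mito-supplemented replicate 3, nor Notch2 without mito-supplemented replicate 4. Over all genes the counts in these settings were 803 of 14481, 783 of 14152 and 636 of 14658, in that order. Hey1 joined them without mito-supplemented replicate 4. Heyl joined them without mito-supplemented replicate 1, where 2003 of 14251 genes in all had an unadjusted p under 0.05. With counts summed by label prefix the genes were Notch2 and Heyl, without Notch1 and Hes1 (1178 of 15705 genes in all). In the main fit all 3, Notch1, Notch2 and Hes1, were higher in the mito-supplemented group, against 5.31% of all genes. Groups that did not overlap were seen for 2 of the 9 with the mito-supplemented libraries higher, Notch2 and Hes1, against 3.00% of all genes, and for 0 with them lower, against 2.03%. Of the 9 log2 fold changes 6 were above 0, against 44.9% over all genes, and their median was 1.06, against −0.10. The genes were chosen with earlier results of these data known, so these counts describe them and no more.

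Of the 57 other pathway genes 46 were tested, edgeR called 0 at an adjusted p under 0.05, as did the likelihood ratio test, and 2, or 4.35%, had an unadjusted p under 0.05, against 7.71% of all genes. One was Dtx1, a ubiquitin ligase of the Deltex family that regulates Notch, at 4.72, 3.41, 2.92 and 8.68 CPM in control replicates 1 to 4 and 15.2, 20.4, 9.75 and 24.8 CPM in mito-supplemented replicates 1 to 4. Its groups did not overlap, as was the case for 2 of the 46, or 4.35%, against 3.00% of all genes, the other being its relative Dtx3l, with at most 10.2 CPM in the controls and up to 21.7 CPM in the mito-supplemented libraries. Dtx1 had a log2 fold change of 1.84 with a standard error of 0.54 and, from edgeR with Benjamini-Hochberg adjustment, an adjusted p of 0.599. The other gene at an unadjusted p under 0.05 was Maml3, a Mastermind-like coactivator of the nuclear complex, at 27.2, 26.8, 28.1 and 42.6 CPM in control replicates 1 to 4 and 40.1, 85.3, 49.5 and 93.7 CPM in mito-supplemented replicates 1 to 4. Here control replicate 4 lay above mito-supplemented replicate 1, the log2 fold change was 1.11 with a standard error of 0.38, and edgeR's Benjamini-Hochberg adjusted p was 0.626. Without mito-supplemented replicate 2 only Dtx1 had an unadjusted p under 0.05.

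Rbpj itself, the DNA-binding partner of the cleaved receptor, was counted at 15.4, 22.4, 11.7 and 16.2 CPM in control replicates 1 to 4 and at 14.0, 21.4, 25.6 and 23.6 CPM in mito-supplemented replicates 1 to 4. The groups overlapped, with a log2 fold change of 0.36 and a standard error of 0.39, and Maml1, another coactivator, had 0.28 with a standard error of 0.40. Mib1, which ubiquitinates the ligands so that they can signal, averaged 69.0 ± 22.8 and 68.5 ± 21.4 CPM in the 2 groups (SD, n = 4 each). Numb, an inhibitor of the receptors, likewise had a log2 fold change of 0.04 with a standard error of 0.54. Of the 10 genes that cleave the receptor, 9 had a log2 fold change below 0 and 1 above it, against 44.9% of all genes above 0, and none passed the test or had an unadjusted p under 0.05. Their median was −0.45, but −0.21 with library-size scaling and −0.14 without control replicate 1, each with 6 of 10 below 0, and −0.21 without mito-supplemented replicate 4. Among them, Adam10 stood at 229, 198 and 172 CPM in control replicates 2 and 3 and mito-supplemented replicate 1, the libraries high in red cell genes, and at 41.4 to 103 CPM in the others. Its log2 fold change was −0.22 with a standard error of 0.59, and that of Adam17 was −0.40 with a standard error of 0.38.

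Of the remaining genes, Dlk1, a non-canonical ligand, had a log2 fold change of 1.55 with a standard error of 0.79, its values running from 4.04 to 26.3 CPM in the controls and from 11.6 to 76.1 CPM in the mito-supplemented libraries. Hes6, which antagonises Hes1, had one of 2.23 with a standard error of 1.04 on 2 to 154 counts a library. Nrarp, a target that feeds back on the pathway, had −0.83 with a standard error of 0.77, though 2051 of its 2582 exon bases also lie in another annotated gene, and its counts are uncertain to that extent. The fringe genes, which add sugars to the receptors, were low: Lfng had 99, 132 and 137 counts in the 3 libraries where Adam10 was high and at most 18 in the others, Rfng averaged 5.21 ± 3.28 and 4.72 ± 4.35 CPM in the 2 groups (SD, n = 4 each), and Mfng, with at most 31 counts, was not tested. Hes5 had counts in 2 libraries, 10 and 2, and was not tested either. The median log2 fold change of the list was −0.16, and those of the nuclear complex, of the corepressors and of the inhibitors and turnover genes took either sign depending on the library left out. With library-size scaling the median of all genes moved from −0.10 to 0.17 and that of the list to 0.15.

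**Figure D4:**
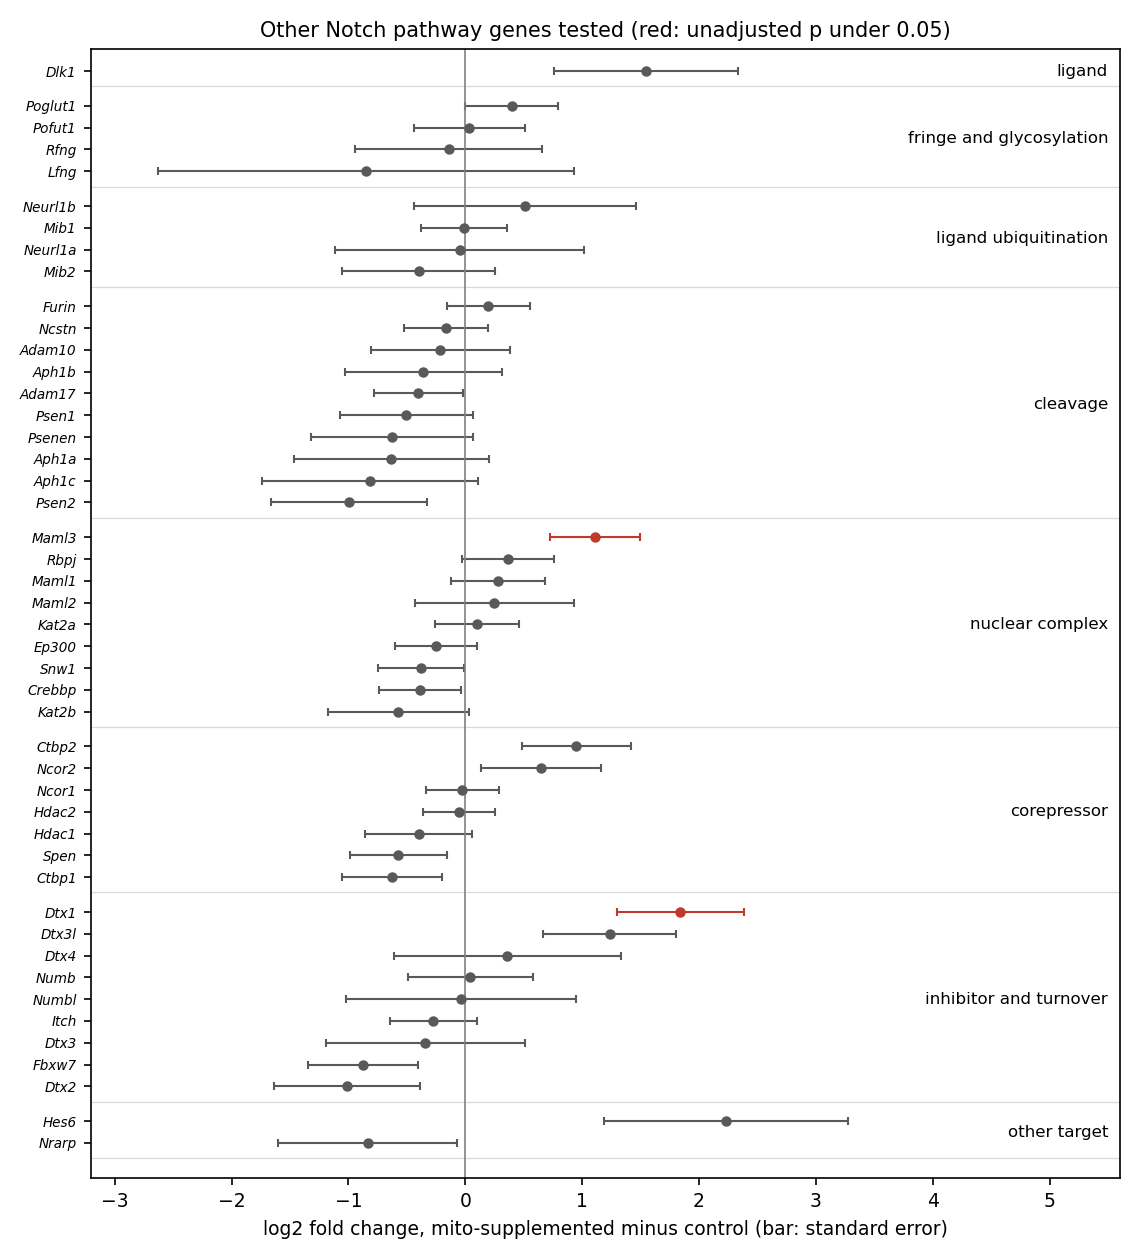
Log2 fold change (mito-supplemented minus control) of the 46 other pathway genes tested, by role, with standard errors; red marks the 2 genes with an unadjusted p under 0.05, Dtx1 and Maml3. Most points lie within a standard error or so of 0, and the cleaving enzymes sit mostly to its left.

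Of the 11 pregranulosa genes 10 had a log2 fold change above 0, Kitl being the exception, against 44.9% of all genes. Their median was 1.00, and 5 were higher at an unadjusted p under 0.05, against 5.31% of all genes. That count of 5 ran from 2, without mito-supplemented replicate 2, to 7, with library-size scaling among others, where 572 of 14493 and 1341 of 13873 genes in all had an unadjusted p under 0.05. The 9 surface epithelium genes, led by Upk3b, summed to 81.5, 39.5, 30.4 and 331 CPM in control replicates 1 to 4 and to 264, 728, 292 and 605 CPM in mito-supplemented replicates 1 to 4. Control replicate 4 lay above mito-supplemented replicates 1 and 3. All 9 had log2 fold changes above 0, with a median of 1.89 and 5 at an unadjusted p under 0.05. That count was 1 with control replicate 1 or mito-supplemented replicate 2 left out and 9 by limma-voom or with control replicate 4 left out, and the median reached 3.36 without control replicate 4. In the main fit 1069 of 13873 genes in all had an unadjusted p under 0.05. Without control replicate 1 the number was 1096 of 14291, so the list's lower count there was not matched over all genes. It was 572 of 14493 without mito-supplemented replicate 2, 1426 of 13873 by limma-voom and 1863 of 14743 without control replicate 4. The defining genes Upk1b, Upk3b and Krt7 had counts in all 8 libraries. The 12 immediate-early genes, which many stimuli and tissue handling induce within minutes, summed to 222, 599, 556 and 308 CPM in the controls and to 769, 1333, 1681 and 3135 CPM in the mito-supplemented libraries, with Egr1 the most abundant. On this list, too, all 12 were higher and the summed groups did not overlap, with a median of 2.37 and 8 at an unadjusted p under 0.05. All the marker lists were chosen with earlier results of these data known, so the direction of none of them is independent evidence. The immediate-early list also holds genes that those results had named. By edgeR's quasi-likelihood test, which called 0 of all 13873 genes, none of the genes on these lists passed at an adjusted p under 0.05. Results of edgeR's likelihood ratio test, which called 58 genes in all, are not given here for the marker lists.

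The 9 stroma genes, led by Col3a1, summed to 340 to 2271 CPM in the controls and to 969 to 2574 CPM in the mito-supplemented libraries, with all 9 above 0 at a median of 0.81 and 0 at an unadjusted p under 0.05. The median was 1.76 with control replicate 4 left out, where 6 had an unadjusted p under 0.05, 1.56 under library-size scaling, where 5 did (1863 of 14743 and 1341 of 13873 genes in all), and 0.46 with mito-supplemented replicate 4 left out, where 7 of 9 lay above 0. The 12 endothelial genes, led by Kdr, summed to 27.4, 30.3, 50.2 and 229 CPM in control replicates 1 to 4 and to 99.1, 229, 195 and 207 CPM in mito-supplemented replicates 1 to 4. Their defining genes Pecam1, Cdh5 and Kdr had counts in every library, whereas Cldn5 had none in 3, and 7 of the 10 tested had a log2 fold change above 0, at a median of 0.93 and with 1 at an unadjusted p under 0.05. That median was 0.14 without mito-supplemented replicate 3, where 5 of 9 lay above 0. It was 1.52 without control replicate 4 and 1.47 with library-size scaling, each with 10 of 10 above 0. The 10 pericyte and smooth muscle genes, led by Myh11, summed to 36.5 to 258 CPM in the controls and to 59.4 to 369 CPM in the mito-supplemented libraries, Rgs5 being at 0 in 2 libraries, and 7 of the 8 tested lay above 0, at a median of 1.32 and with 1 at an unadjusted p under 0.05. Without mito-supplemented replicate 4 the median was 0.41, with 6 of 9 above 0 and none at an unadjusted p under 0.05 (636 of 14658 genes in all). It was 1.94 without control replicate 4 and 1.92 with library-size scaling, each with 8 of 8 above 0. More of the list had an unadjusted p under 0.05 in those settings, as did more genes in all (1863 of 14743 and 1341 of 13873). In the main fit 44.9% of all genes lay above 0, and 7.71% had an unadjusted p under 0.05. Control replicate 4 was the control with the highest sum on the endothelial and the pericyte and smooth muscle lists. The same held on the pregranulosa, surface epithelium and stroma lists. Among the Notch genes, control replicate 4 was the highest control for Hes1, Hey1 and Heyl. The highest control was replicate 3 for Notch1 and Notch2, and replicate 1 for Notch3, Jag1, Jag2 and Hey2. The 8 immune genes, led by Lyz2, summed to 755 CPM in mito-supplemented replicate 1 and to between 10.5 and 138 CPM in the rest. Of the 8 red cell genes 7 were found, and the globins among them were low: at most 96 counts for Hbb-bs (listed as Beta-s), 5 for Hba-a1 and 106 for Hba-a2 in any library. None of the 91 marker genes was on 2 lists, though Wt1 and Lgr5 are also known from surface epithelium and Krt8 and Krt18 from pregranulosa cells. What these differences in make-up contribute to the Notch genes was not tested.

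**Figure D5:**
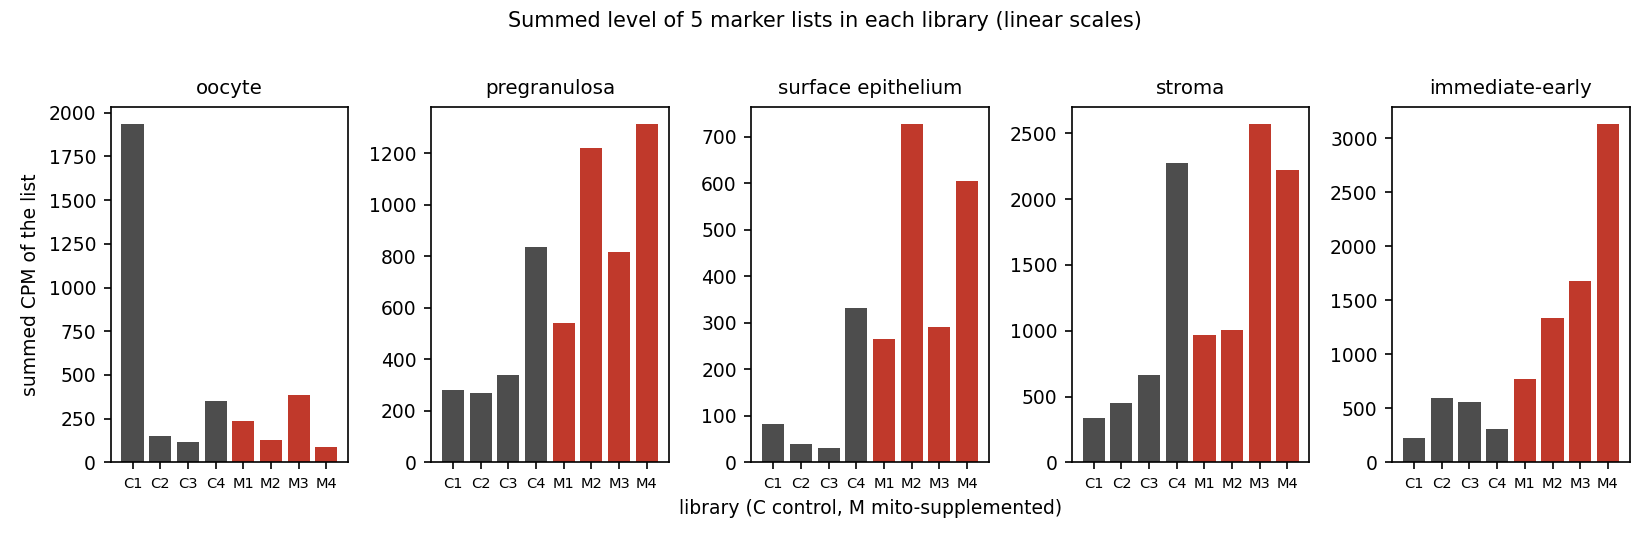
Summed CPM of 5 marker lists in each library (C1 to C4 control, M1 to M4 mito-supplemented; linear scales from 0). Control replicate 1 holds the highest oocyte sum, 1938 CPM, control replicate 4 resembles the mito-supplemented libraries on the pregranulosa, surface epithelium and stroma lists, and the immediate-early sums of the groups do not overlap.

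For 3 of the genes the best matching profiles over the 8 libraries were sought among all genes tested, by Pearson's correlation of log2 CPM. Notch2 was most like Slc35e3 (r = 0.989), Rragd (r = 0.977) and Znrf1 (r = 0.973). Jag1 was most like Bbx (r = 0.987), Fam118b (r = 0.987) and Lgmn (r = 0.985), each of them highest in control replicate 1. Hes1 was most like Lpl (r = 0.979), Itgb8 (r = 0.977) and Ephb1 (r = 0.973). These values rank profiles over libraries that share their depth and make-up, and they are given as a description.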

How the data were processed

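The authors deposited raw counts per gene symbol for 8 libraries of primordial follicles, and these counts were used as they stand. According to the submitters' processing notes and the methods of the study, reads were trimmed with Trim Galore 0.4.4, mapped to GRCm38 (mm10) with STAR 2.5.3a and counted on exons with featureCounts. The release of the annotation, the strand setting and how multi-mapping reads were treated are not given in the sources used here. A control library that the authors set aside was not analysed here, and 0 columns of per-sample values were left unused.

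From the counts, mito-supplemented and control libraries (4 each) were compared with edgeR 4.0.16 in R 4.3.3: filterByExpr, TMM scaling, the quasi-likelihood test and Benjamini-Hochberg adjustment over the 13873 genes tested, with a call at an adjusted p under 0.05. Standard errors were the absolute log2 fold change over the square root of F. CPM were computed on TMM-scaled library sizes, with 2 as prior count for log2 values, and divided by the GENCODE M21 exon length for levels per kb. No 2 libraries agreed within sampling noise. The code was tested on simulated data.

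Alternatives were the likelihood ratio test, DESeq2 1.42.0, limma-voom (limma 3.58.1), other scalings and filters, library sizes without the ribosomal RNA genes, a replicate block, counts summed by label code, and leaving out each library. Named genes were the 10 members, 16 pathway genes listed by name, any other pathway gene with an unadjusted p under 0.05, the 3 most correlated genes for Notch2, Jag1 and Hes1, and the leading and defining marker genes. The members and all lists were chosen with earlier results of these data known. Kitl, Cldn5, Rgs5, Hba-a2, Dtx3l, Dner, Dlk2, Krt8, Krt18 and Lgr5 were named after their values were seen. Promoters are from RefSeq.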

Additional observations from a re-analysis of the deposited data

Results flagged for a closer look

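In each group of 4 libraries, the gap from the highest or lowest to the next was divided by the range, both in log2 CPM. A library was taken to stand apart where this ratio exceeded Dixon's limit for 4 values. A small gap can thus exceed the limit where the other libraries lie close together. Of the 44 groups examined, 4 held such a library, where chance gives about 1 in 20, or 2.2.

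Notch3 in control replicate 2 was at −1.187 log2 CPM, from 4 counts, below the other controls at 1.683 to 1.931. Hes6 in control replicate 1 was at 1.501, from 66 counts, above the other controls at −1.293 to −0.9475, which had 2 to 5 counts. Numb in control replicate 4 was at 3.404, from 53 counts, below 5.199 to 5.561 in the other controls. Maml3 in control replicate 4 was at 5.418, from 216 counts, above 4.751 to 4.818 in the other controls. All 4 were control libraries, 2 of them control replicate 4, the shallowest library outside ribosomal RNA.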

How the results depend on the processing

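The count of called Notch genes was 0 under each alternative, and the count at an unadjusted p under 0.05 lay between 2 and 4 of the 9 tested. It was 4 without mito-supplemented replicate 1, where 2003 of 14251 genes in all had an unadjusted p under 0.05. With counts summed by label code Notch2 and Heyl were the 2, without Notch1 and Hes1 (1178 of 15705 genes in all). Notch1, Notch2, Jag2 and the 4 target genes had the same sign under every alternative. Notch3 turned to 0.0262 with library-size scaling, and with 1 library left out ran from −1.15 to 0.11; Jag1 ran from −1.63 to 0.68. Other pathway genes at an unadjusted p under 0.05 numbered 2, but 4 by the likelihood ratio test and DESeq2, 5 by limma-voom, with library-size or upper-quartile scaling and with counts summed by label code, and between 1 (mito-supplemented replicate 2 left out, 572 of 14493 genes in all) and 7 (control replicate 4 left out, 1863 of 14743) with 7 libraries. Over all genes, 0 were called, against 58 by the likelihood ratio test and 141 by DESeq2. The cause of these shifts was not tested. The median log2 fold change of the Notch genes was lowest, 0.59, with mito-supplemented replicate 3 left out and highest, 1.46, with mito-supplemented replicate 1 left out. The labels do not say whether replicate numbers pair the libraries, and the main test used no pairing. Same-numbered libraries deviated together at −0.24, −0.19, −0.33 and 0.22, which cannot settle whether they were paired. With the number as a replicate block, 0 Notch genes and 0 genes in all were called, 3 Notch genes and 3 other pathway genes had an unadjusted p under 0.05, and the median was 0.88. Low counts limit Notch3, Dll4, Hey2 and Notch4, each with a library at 2 counts or fewer, and several other pathway genes in the same way. These were not always the shallowest libraries, and the part of depth was not tested.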
